A study of Homo sapiens with 18 samples.

Results

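The clustered histone genes encode the linker histone H1 and the core histones H2A, H2B, H3 and H4, and lie in gene clusters on chromosomes 6 and 1. Members were chosen by symbol: every gene whose probe set carried 1 symbol of the series H1-1 to H1-6, H2AC, H2BC, H3C or H4C, represented by the probe set whose mean across the 18 arrays was highest. This gave 42 of the 19775 genes measured, namely 6 H1, 8 H2A, 13 H2B, 7 H3 and 8 H4 genes. Of these, 40 lie on chromosome 6, and H2BC21 and H2AC25 lie on chromosome 1.

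RNA of CWR22Rv1 and DU145, established lines grown from human prostate cancers, was hybridised to Affymetrix U133 Plus 2.0 arrays. In each line, cells received an siRNA against Stat3, siRNA against Stat5a/b or a scramble control siRNA with Lipofectamine 2000, and RNA was taken 48 h later. Each of the 6 groups held 3 arrays. Values are log2 expression values as deposited, and because every probe set hybridises differently, levels are compared only within a gene. The probe sets of H2AC14, H2BC5, H2BC6, H2BC9, H3C8 and H4C11 carry the suffix _x_at, and those of H2AC6, H2BC21 and H3C2 carry _s_at. Both suffixes mark probes that can hybridise with several transcripts, so these values may include related transcripts.

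Clustered histone genes are replication-dependent: their transcripts accumulate in S phase, when new DNA must be packaged. Their messenger RNAs end in a conserved stem-loop bound by SLBP in place of a poly(A) tail, and their transcription depends on NPAT, which cyclin E and CDK2 phosphorylate. Several of them, among them H1-2, H2AC6, H2BC12 and H2BC21, are known to make polyadenylated transcripts as well. The labels used here do not name the primer of the labelling step, so how completely stem-loop messages were captured is unknown.

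The promoter sequences of the members on which the results turn are given here because they show the motifs by which the families differ. They are the bases before the annotated transcript start in RefSeq (GRCh38.p14), written 5′ to 3′ on the gene's strand. Capitals mark the octamer ATTTGCAT, CCAAT and TATAAA, or their reverse complements ATGCAAAT, ATTGG and TTTATA. The first covers the 245 bases between H2AC6 and H2BC4, which are transcribed away from each other, and the others cover 150 bases each.
H2AC6: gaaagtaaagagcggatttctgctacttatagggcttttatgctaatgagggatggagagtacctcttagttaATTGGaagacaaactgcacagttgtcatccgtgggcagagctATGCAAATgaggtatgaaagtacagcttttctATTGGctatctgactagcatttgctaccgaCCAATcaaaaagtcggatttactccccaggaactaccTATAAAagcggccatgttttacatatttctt
H2BC12: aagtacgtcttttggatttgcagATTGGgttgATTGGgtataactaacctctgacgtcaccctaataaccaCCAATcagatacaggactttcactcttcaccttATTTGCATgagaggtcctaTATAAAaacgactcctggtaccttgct
H2BC21: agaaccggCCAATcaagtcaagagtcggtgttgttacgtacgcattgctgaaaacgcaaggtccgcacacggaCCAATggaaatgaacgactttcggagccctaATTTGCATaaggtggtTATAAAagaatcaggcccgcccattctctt
H1-2: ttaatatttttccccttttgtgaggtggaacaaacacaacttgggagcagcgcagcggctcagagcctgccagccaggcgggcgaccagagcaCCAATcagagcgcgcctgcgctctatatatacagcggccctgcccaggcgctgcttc
H3C6: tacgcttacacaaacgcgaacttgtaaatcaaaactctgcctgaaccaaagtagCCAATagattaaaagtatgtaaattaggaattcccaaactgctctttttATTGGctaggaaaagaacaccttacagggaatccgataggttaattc
The windows lie at chr6:26123927-26124171 (plus strand) for H2AC6, chr6:27146859-27147008 (minus strand) for H2BC12, chr1:149886683-149886832 (minus strand) for H2BC21, chr6:26056471-26056620 (minus strand) for H1-2 and chr6:26224028-26224177 (plus strand) for H3C6. H2AC6, H2BC12 and H2BC21 hold an octamer, whereas the H1-2 and H3C6 windows hold CCAAT without one.

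Promoter entries of 250 bases before and 50 after the start were found for 40 members, H3C11 and H4C1 having none here. The octamer, the motif bound by the POU factor Oct-1 in H2B promoters, was present on either strand in 6 of 8 H2A and 10 of 13 H2B windows, in 0 of 6 H1, 0 of 6 H3 and 0 of 7 H4 windows, and in 1.8% of all 27305 promoters of the table. CCAAT was present in each of the 6 H1, 8 H2A, 13 H2B and 6 H3 windows, in 2 of 7 H4 windows, and in 35.7% of all promoters. TATAAA was present in 27 of the 40 windows, against 12% of all promoters. The spacing of TTCNNNGAA, the sequence that STAT dimers recognise, occurred in 1 of the 40 windows, that of H1-3, against 7.88% of all promoters. A match describes these letters only, and binding was not measured. Among members with an octamer, its first base lay 46 bases before the start in both H2BC12 and H2BC21, 130 in H2AC6 and 123 in H2BC4. The single octamer of the H2AC6 window is the same stretch of DNA as that of H2BC4. The same holds for H2AC14 and H2BC14 and for H2AC17 and H2BC17, so these octamers are counted under both H2A and H2B.

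STAT3 and STAT5B were lowered in the groups whose siRNA targets them. STAT3 had a log2 change of -1.13 ± 0.090 with Stat3 siRNA in CWR22Rv1 and of -1.62 ± 0.090 in DU145. Under Stat5a/b siRNA, STAT5B changed by -0.91 ± 0.091 in CWR22Rv1 and -1.36 ± 0.091 in DU145, while the STAT5A differences were -0.34 ± 0.13 and -0.30 ± 0.13, neither past the test (limma adjusted p = 0.146 and 0.101). Values given as a ± b here and below are a difference of means of 3 arrays each with the standard error of the fit across all genes. Arrays of one group correlated at 0.993 to 0.998. The prostate luminal genes KLK2 and HOXB13 were high on CWR22Rv1 arrays and low on DU145 arrays, VIM, CAV1 and AXL ran the other way, and KLK3 stayed between 6.40 and 7.13 on all arrays. Group means of leukocyte, endothelial and fibroblast markers lay between 2.96 and 5.61.

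The largest differences of histone genes lay between the lines, from -3.38 to 2.14, where siRNA changes against scramble ran from -0.30 to 0.97. This did not hold for every member. H2AC15 differed by 0.12 and H3C2 by -0.45 between the lines, and Stat5a/b siRNA in DU145 changed them by 0.46 and 0.62. Between CWR22Rv1 scramble and DU145 scramble arrays, 19 of the 42 histone genes were lower in CWR22Rv1 and 4 were higher at an adjusted p under 0.05, where 27% and 30% of all genes were called. The median difference of the histone genes was -0.15, against 0.033 over all genes, and 10 members were at least 2-fold lower in CWR22Rv1, as were 10% of all genes. In bulk samples, fewer cells making a transcript and less RNA per cell cannot be told apart. Of 21 genes of DNA replication measured beside them, 12 were higher in CWR22Rv1 and 8 lower, with a median difference of 0.29, and their part in the histone differences was not tested.

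Among the linker histones, H1-2, a somatic subtype that compacts chromatin between nucleosomes, stood alone. It measured 7.53, 7.55 and 7.52 on CWR22Rv1 scramble arrays, against 10.99, 10.95 and 10.78 on DU145 scramble arrays. The groups lay far apart, with CWR22Rv1 at 9.61% of the DU145 level (-3.38 ± 0.064, adjusted p = 7.55e-17). The other H1 genes, including H1-6 of the testis, differed by -0.16 to 0.20 between the lines and were not called.

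The H2A genes were split. H2AC6 measured 6.54, 6.55 and 6.49 on CWR22Rv1 scramble arrays, against 9.68, 9.70 and 9.67 on DU145 scramble arrays, a difference of -3.16 ± 0.059 (adjusted p = 6.69e-17). H2AC8 (-1.81 ± 0.16), H2AC17 (-0.81 ± 0.15), H2AC14 (-0.42 ± 0.10) and H2AC4 (-0.40 ± 0.13) were also lower in CWR22Rv1. H2AC25, which lies on chromosome 1, ran the other way with 9.40, 9.34 and 9.26 on CWR22Rv1 scramble arrays and 7.21, 7.22 and 7.13 on DU145 scramble arrays. This rise of 2.14 ± 0.078 was the largest of any member (adjusted p = 2.6e-13), although a second H2AC25 probe set, with a mean of 4.54, differed by 0.27 ± 0.097.

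Of the 13 H2B genes, 8 were lower in CWR22Rv1 and 0 higher, where 5 of the 8 H2A genes were lower and 1 higher. H2BC4 measured 3.58, 3.80 and 3.35 on CWR22Rv1 scramble arrays, near the bottom of the array, against 6.65, 7.14 and 6.81 on DU145 scramble arrays. Its measured difference was -3.29 ± 0.14, and because the CWR22Rv1 values are not shown to lie above background, its true size is not known. H2BC4 and H2AC6 flank the first window shown above. H2BC12 had 9.74, 9.72 and 9.71 on CWR22Rv1 scramble arrays and 12.19, 12.17 and 12 on DU145 scramble arrays (-2.40 ± 0.063, adjusted p = 4.01e-15). H2BC6 (-2.13 ± 0.088), H2BC5 (-2.04 ± 0.11), H2BC9 (-2.03 ± 0.11) and H2BC21 (-1.71 ± 0.18) followed. Their probe sets carry _x_at or _s_at and may share related transcripts, so these need not be separate differences. H2BC11 and H2BC17 were measured as lower by less than 2-fold. They lay at 2.60 to 4.36 on these arrays, below the array medians, so the true sizes of their differences are not known. The second probe set of H2BC5 differed by -2.95 ± 0.13. H2BC1, a testis form, had values between 2.72 and 2.83 on these arrays and did not pass the test.

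The H3 and H4 genes had members on both sides. H3C6 measured 5.08, 5.0 and 5.25 on CWR22Rv1 scramble arrays, against 3.43, 3.43 and 3.37 on DU145 scramble arrays (1.70 ± 0.13, adjusted p = 5.57e-09). The DU145 values lay near the bottom of the array, and a second H3C6 probe set differed by 0.74 ± 0.14. H3C3 (0.65 ± 0.13) and H4C4 (0.78 ± 0.17) were also higher in CWR22Rv1, whereas H3C2 (-0.45 ± 0.14) and H3C8 (-0.38 ± 0.11) were lower. H4C8 measured 5.09, 4.74 and 4.56 on CWR22Rv1 scramble arrays and 6.67, 6.64 and 6.86 on DU145 scramble arrays, a difference of -1.93 ± 0.13. Its second probe set gave -2.36 ± 0.14. H4C13 (-0.39 ± 0.11) and H4C1 (-0.20 ± 0.064) were lower by small amounts. On the scramble arrays of both lines H4C4 lay at 2.65 to 3.80 and H4C1 at 3.00 to 3.38, near the bottom of the array. The true sizes of their differences are therefore not known.

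The 3′ minus 5′ difference of the ACTB control probe sets, a measure of RNA integrity and labelling, had group means of 0.740 to 0.797 on CWR22Rv1 arrays and 0.546 to 0.593 on DU145 arrays. The same difference for GAPDH overlapped between the lines, at 0.0832 to 0.138 on CWR22Rv1 arrays and 0.102 to 0.116 on DU145 arrays. The part of RNA integrity and labelling in the line differences was not tested.

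**Figure D1:**
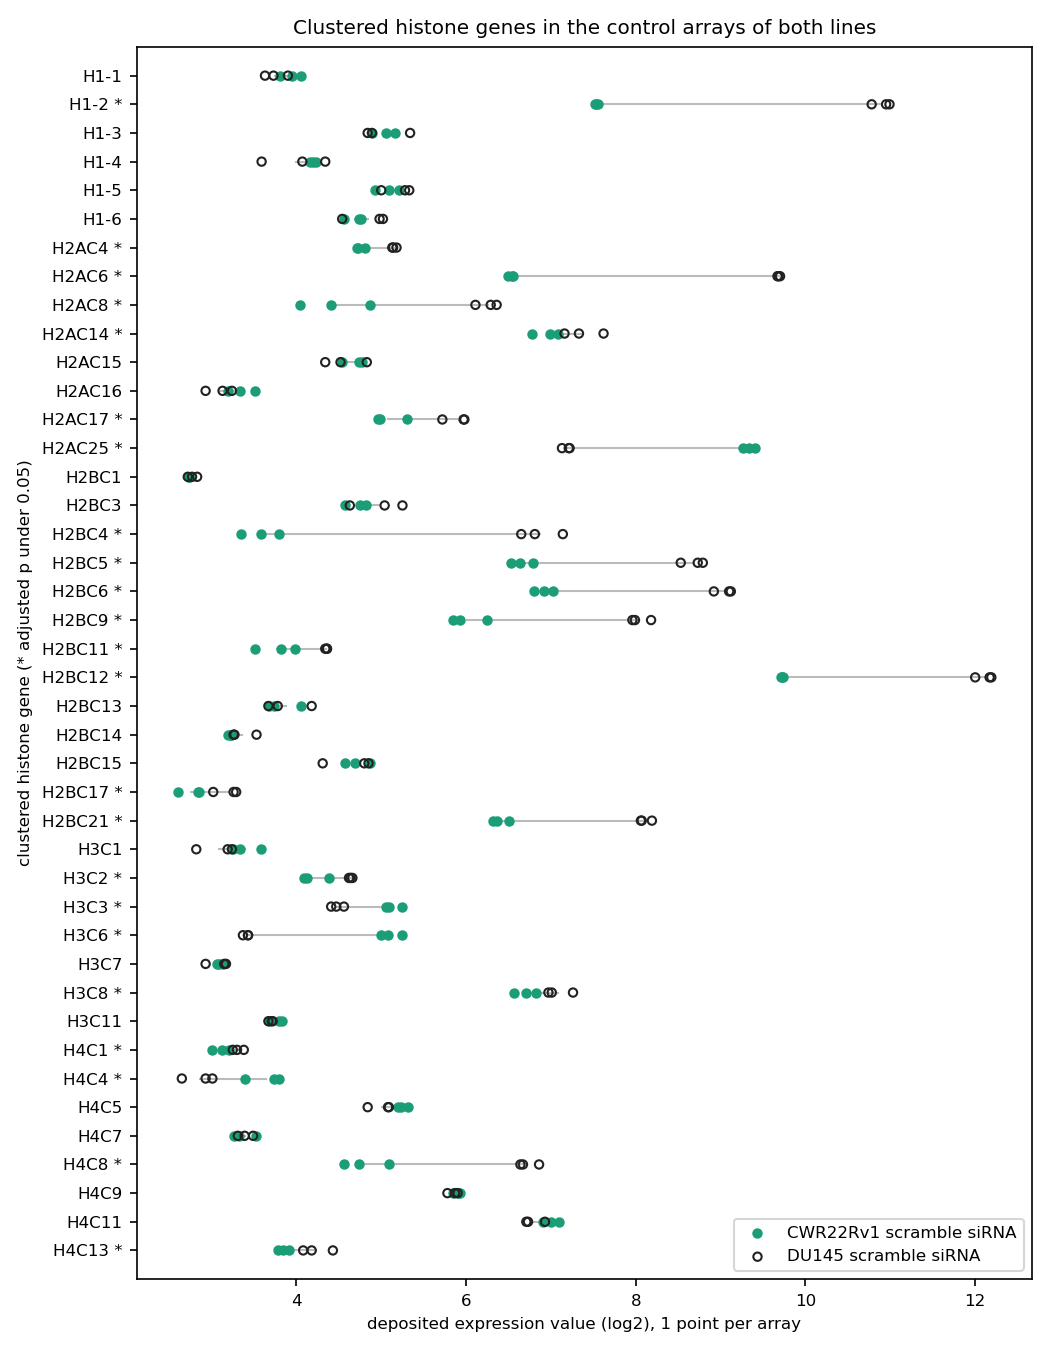
Deposited log2 values (x axis) of the 42 clustered histone genes (rows) on the 3 scramble arrays of CWR22Rv1 (filled) and of DU145 (open), joined by a line between the group means, with a star where the adjusted p was under 0.05. H1-2, H2AC6 and H2BC4 lie more than 3 log2 units lower in CWR22Rv1, while H2AC25 and H3C6 lie to the right in CWR22Rv1.

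Against scramble siRNA, every histone gene called in the 4 siRNA comparisons was higher. In CWR22Rv1, Stat3 siRNA gave 3 called members, H1-2, H2AC6 and H3C6, where 2.75% of all genes were called higher and 2.02% lower. Stat5a/b siRNA in CWR22Rv1 gave 4, H1-2, H2AC6, H2BC12 and H3C6, where 3.16% were called higher and 3.3% lower. In DU145, Stat3 siRNA gave 9, where 7.51% were called higher and 8.25% lower. Stat5a/b siRNA in DU145 gave 6, where 11.8% were called higher and 12.5% lower. The DU145 Stat3 count was 5 without scramble replicate 3 and 5 without Stat3 replicate 2, and with array weights it was 3. With each line fitted alone, the counts were 6 for Stat3 siRNA in CWR22Rv1 and 5 and 3 for Stat3 and Stat5a/b siRNA in DU145. With array weights they were 7 for either siRNA in CWR22Rv1. The shares of all genes called in these alternative fits are not given here, so the shifts are not shown to be particular to histone genes. As shares of the 42 members the counts from the fit of all arrays are 7.14%, 9.52%, 21.4% and 14.3%. At an unadjusted limma p under 0.05, either way, 7, 10, 14 and 11 members passed in the same order. The share of all genes at that threshold is not given here, so these counts cannot be set against all genes. All 3 siRNA arrays lay above all 3 scramble arrays for 10 and 14 members in CWR22Rv1 and for 11 and 9 in DU145, where this held for 17.5%, 17.3%, 13% and 16.6% of all genes. They lay below for 0, 1, 1 and 3 members, against 14.9%, 13.8%, 13.2% and 17.8% of all genes. Both siRNAs of a line are compared with the same 3 scramble arrays.

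The changes were small. No member reached 2-fold against scramble siRNA, as 0.0506%, 0.086%, 0.47% and 0.85% of all genes did. The median log2 change of the 42 members was 0.10 and 0.10 for Stat3 and Stat5a/b siRNA in CWR22Rv1, and 0.13 and 0.10 in DU145. Medians over all genes were -0.0042, 0.024, 0.0056 and 0.011 in the same order. Values above 0 were found for 32 and 31 members in CWR22Rv1 and for 34 and 27 in DU145, that is 76.2%, 73.8%, 81.0% and 64.3%, where 48.8%, 57.3%, 51.2% and 52% of all genes lay above 0. Split by the mean over all 18 arrays at 5.2, the highest array median and a bound chosen after the values had been seen, the 16 members above it had medians of 0.18 and 0.21 in CWR22Rv1 and 0.23 and 0.14 in DU145. The other 26 had medians of 0.032, 0.035, 0.084 and -0.0064. The split does not follow the level in each line: H2BC4 and H2AC8 are among the 16 but lay under 5.2 on the CWR22Rv1 scramble arrays, and H3C6, with the highest change in CWR22Rv1, is among the 26. By family, the 13 H2B members lay above 0 in 9 and 11 cases with Stat3 and Stat5a/b siRNA in CWR22Rv1, and in 13 and 9 in DU145. The 8 H2A members did so in 6 and 7 cases, and in 7 and 5. The 7 H3 members did so in 7 and 3, and in 5 and 5. The 8 H4 genes held 0 calls against scramble in any comparison. At an unadjusted limma p under 0.05, for which no share of all genes is given, 1, 2, 0 and 1 of them passed.

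**Figure D2:**
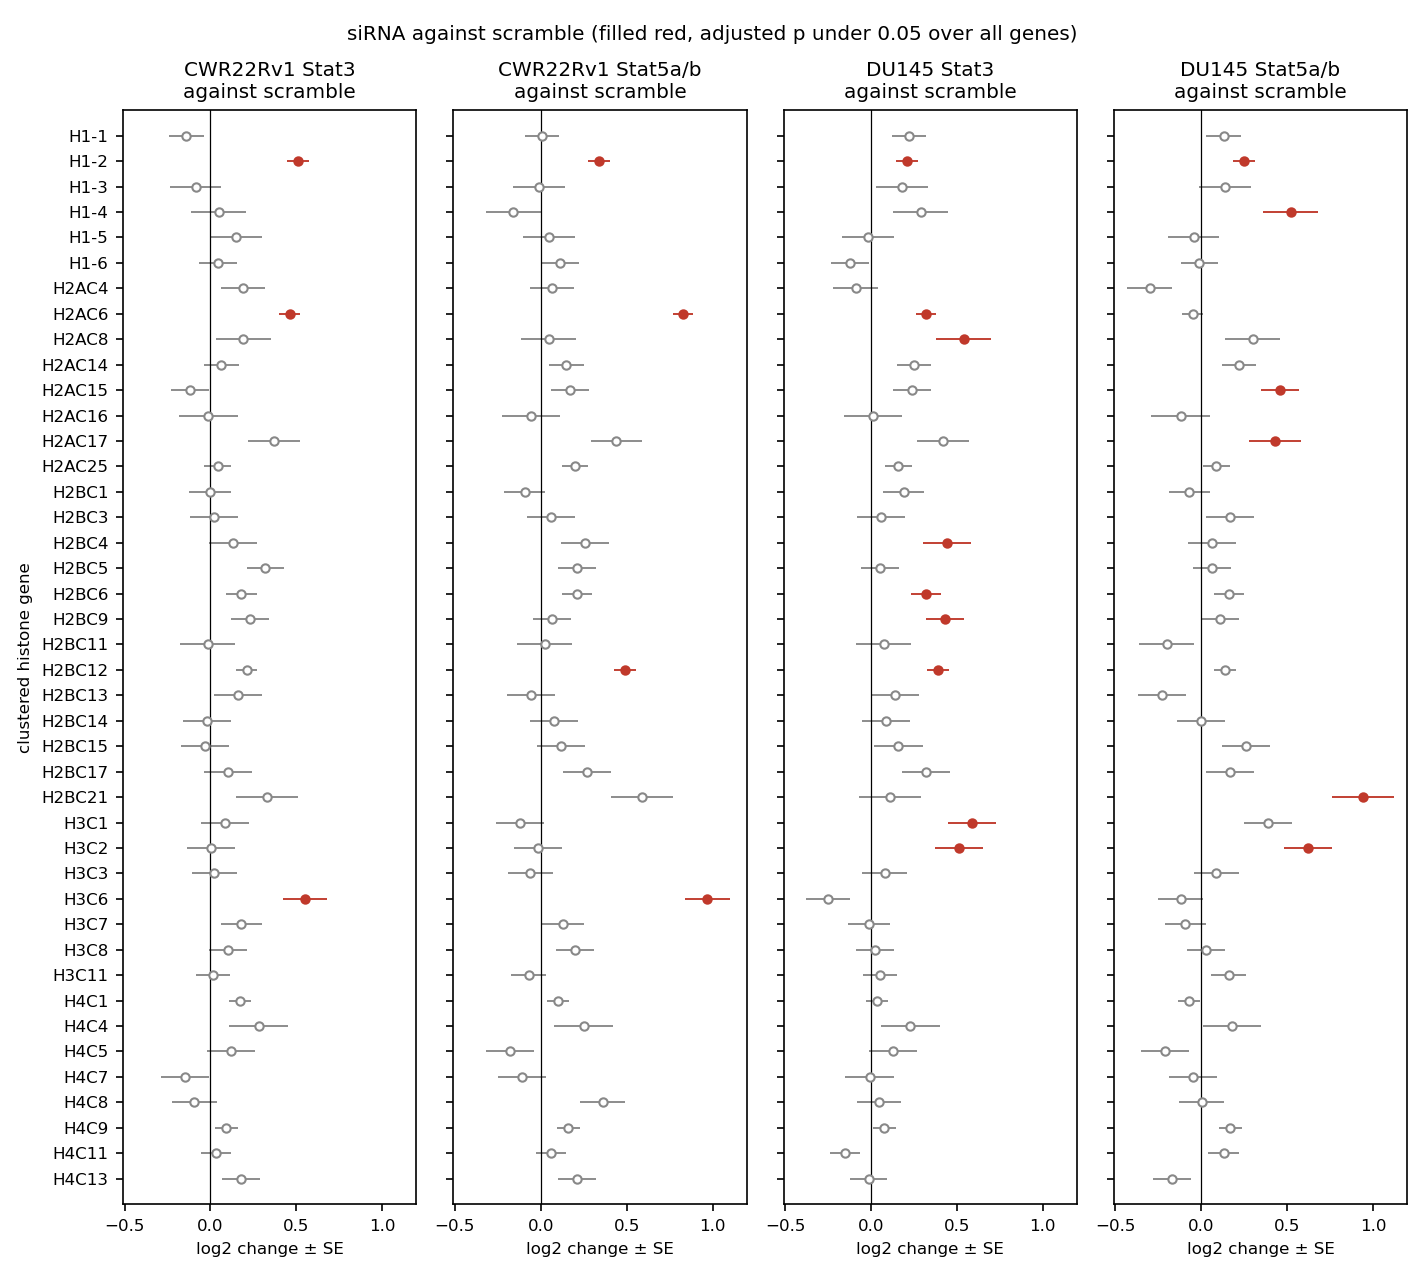
Log2 change with its standard error (x axis) of each of the 42 histone genes (rows) for each siRNA against the scramble arrays of its line, 3 arrays against 3, with called genes filled in red. All filled points lie right of 0, and H3C6 is filled in CWR22Rv1 and open, left of 0, in DU145.

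H1-2 was the member called in all 4 siRNA comparisons. With Stat3 siRNA it measured 8.0, 8.02 and 8.11 on CWR22Rv1 arrays and with Stat5a/b siRNA 7.83, 7.94 and 7.83, against 7.53, 7.55 and 7.52 with scramble siRNA. No siRNA array overlapped the scramble arrays, and the changes were 0.51 ± 0.064 (adjusted p = 2.26e-04) and 0.34 ± 0.064 (adjusted p = 0.00376). In DU145 it measured 11.10, 11.19 and 11.06 with Stat3 siRNA and 11.16, 11.14 and 11.18 with Stat5a/b siRNA, against 10.99, 10.95 and 10.78 with scramble siRNA. Again all siRNA arrays lay above the scramble arrays, by 0.21 (adjusted p = 0.0349) and 0.25 (adjusted p = 0.00898) with the same standard error. The call for Stat3 siRNA in DU145 was lost without scramble replicate 3 (adjusted p = 0.15), without Stat3 replicate 1 (0.055) and without Stat3 replicate 2 (0.122), and both DU145 calls were lost when DU145 was fitted alone (adjusted p = 0.180 and 0.0760).

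H1-4, another somatic linker histone, was called with Stat5a/b siRNA in DU145 and in no other siRNA comparison. It measured 4.43, 4.52 and 4.60 there, against 3.59, 4.34 and 4.07 on scramble arrays (0.52 ± 0.16, adjusted p = 0.0238). Its scramble arrays were widely spread and all its values lay below the array median. The call was lost without scramble replicate 1 (0.31, adjusted p = 0.136), Stat5a/b replicate 2 (adjusted p = 0.0567) or Stat5a/b replicate 3 (adjusted p = 0.0681). It was also lost when DU145 was fitted alone (adjusted p = 0.0774). H1-1, H1-3, H1-5 and H1-6 changed by -0.14 to 0.22 in the 4 comparisons, none past the test.

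H2AC6 gave the smallest adjusted p of any member against scramble siRNA. On CWR22Rv1 arrays it measured 6.92, 6.91 and 7.12 with Stat3 siRNA and 7.39, 7.34 and 7.35 with Stat5a/b siRNA, against 6.54, 6.55 and 6.49 with scramble siRNA. The 3 groups did not overlap, and Stat5a/b siRNA stood highest, with changes of 0.46 ± 0.059 (adjusted p = 2.70e-04) and 0.83 ± 0.059 (adjusted p = 5.24e-07). On DU145 arrays it measured 9.97, 10.00 and 10.04 with Stat3 siRNA and 9.64, 9.67 and 9.59 with Stat5a/b siRNA, against 9.68, 9.70 and 9.67 with scramble siRNA. Stat3 siRNA raised it by 0.32 ± 0.059 (adjusted p = 0.00121), while with Stat5a/b siRNA the change was -0.05 ± 0.059 (adjusted p = 0.589).

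H2AC8, H2AC15 and H2AC17 were called in DU145. H2AC8 measured 6.59, 7.02 and 6.76 with Stat3 siRNA in DU145, against 6.11, 6.36 and 6.29 with scramble siRNA (0.54 ± 0.16, adjusted p = 0.0296). The arrays did not overlap, but the call was lost without scramble replicate 1 (adjusted p = 0.113) or 3 (0.0562), or without Stat3 replicate 2 (0.126) or 3 (0.0609). It was also lost with array weights (0.173). H2AC15 measured 4.93, 5.09 and 5.06 with Stat5a/b siRNA in DU145, against 4.52, 4.83 and 4.34 with scramble siRNA (0.46 ± 0.11, adjusted p = 0.00535). Its second probe set changed by 0.12 ± 0.12 and was not called. H2AC17 measured 6.21, 6.03 and 6.71 with Stat5a/b siRNA, against 5.97, 5.98 and 5.72 with scramble siRNA, and just passed the test (0.43 ± 0.15, adjusted p = 0.0487). That call depended on most arrays: without Stat5a/b replicate 3 the change was 0.23 (adjusted p = 0.218), and it was also lost without Stat5a/b replicate 1 (0.0593) and without scramble replicate 1 (0.0732), 2 (0.0653) or 3 (0.155). H2AC17 also lost the call in 6 of 9 other alternative fits, among them that with array weights (0.169). Its values in the other comparisons were similar in size, 0.37, 0.44 and 0.42 for Stat3 and Stat5a/b siRNA in CWR22Rv1 and Stat3 siRNA in DU145, with no array overlapping scramble, and did not pass the test. H2AC4, H2AC14, H2AC16 and H2AC25 changed by -0.30 to 0.25 and were not called.

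H2BC12 was called with Stat5a/b siRNA in CWR22Rv1 and with Stat3 siRNA in DU145. On CWR22Rv1 arrays it measured 9.97, 9.91 and 9.94 with Stat3 siRNA and 10.18, 10.20 and 10.27 with Stat5a/b siRNA, against 9.74, 9.72 and 9.71 with scramble siRNA. The groups were tight and did not overlap, and the changes were 0.21 ± 0.063 (adjusted p = 0.0671) and 0.49 ± 0.063 (adjusted p = 1.29e-04). On DU145 arrays it measured 12.48, 12.53 and 12.52 with Stat3 siRNA and 12.28, 12.35 and 12.16 with Stat5a/b siRNA, against 12.19, 12.17 and 12 with scramble siRNA. Only the Stat3 arrays stood clear of scramble (0.39 ± 0.063, adjusted p = 3.98e-04), the Stat5a/b change being 0.14 (adjusted p = 0.111).

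H2BC21, the chromosome 1 gene, gave the largest change of any member in DU145. It measured 8.71, 8.70 and 9.72 with Stat5a/b siRNA, against 8.07, 8.06 and 8.19 with scramble siRNA, a change of 0.94 ± 0.18 (adjusted p = 0.00138). Stat5a/b replicate 3 stood 1 log2 unit above its group, and without it the change was 0.60 (adjusted p = 1.44e-04). In CWR22Rv1 it measured 6.88, 6.99 and 7.09 with Stat5a/b siRNA, against 6.37, 6.51 and 6.32 with scramble siRNA, also without overlap, but that change of 0.59 ± 0.18 did not pass the test (adjusted p = 0.0759). The standard error is shared by all groups of a gene, so the spread of the DU145 arrays enters the CWR22Rv1 test.

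H2BC4, H2BC6 and H2BC9 were called with Stat3 siRNA in DU145 and in no other siRNA comparison. H2BC4 measured 7.16, 7.36 and 7.40 there, against 6.65, 7.14 and 6.81 with scramble siRNA (0.44 ± 0.14, adjusted p = 0.0477). H2BC6 measured 9.39, 9.51 and 9.22, against 9.10, 9.12 and 8.92 with scramble siRNA (0.32 ± 0.088, adjusted p = 0.0194). H2BC9 measured 8.59, 8.60 and 8.23, against 7.99, 8.18 and 7.96 with scramble siRNA (0.43 ± 0.11, adjusted p = 0.0161). In each the Stat3 arrays lay just above the scramble arrays, and the probe sets of H2BC6 and H2BC9 carry the suffix _x_at, which marks probes that can hybridise with related transcripts. The H2BC4 call was lost without scramble replicate 1 (adjusted p = 0.199) or 3 (0.116), or without Stat3 replicate 2 (0.121) or 3 (0.139). The H2BC9 call was lost without scramble replicate 1 (0.0562) or 3 (0.0592), or without Stat3 replicate 1 (0.0631) or 2 (0.0692), and the H2BC6 call without scramble replicate 3 (0.0845) or Stat3 replicate 2 (0.0874). With array weights the calls of H2BC4, H2BC6 and H2BC9 were all lost (adjusted p = 0.227, 0.103 and 0.153). The other 8 H2B genes changed by -0.23 to 0.32 in the 4 comparisons, none past the test.

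H3C6 was called with both siRNAs in CWR22Rv1. It measured 5.76, 5.39 and 5.82 with Stat3 siRNA and 6.02, 6.04 and 6.19 with Stat5a/b siRNA on CWR22Rv1 arrays, against 5.08, 5.0 and 5.25 with scramble siRNA. All siRNA arrays lay above scramble, with changes of 0.55 ± 0.13 (adjusted p = 0.025) and 0.97 ± 0.13 (adjusted p = 2.43e-04). On DU145 arrays it measured 3.03, 3.46 and 2.99 with Stat3 siRNA and 3.52, 3.15 and 3.21 with Stat5a/b siRNA, against 3.43, 3.43 and 3.37 with scramble siRNA, low values that overlapped. A second H3C6 probe set, with a mean of 4.33, changed by -0.14 ± 0.14 and 0.33 ± 0.14 for Stat3 and Stat5a/b siRNA in CWR22Rv1, neither past the test. With the mean of both probe sets the Stat3 change was 0.20 (adjusted p = 0.341). The Stat3 call was also lost without scramble replicate 1 (0.0869) or 2 (0.107), or Stat3 replicate 1 (0.111) or 3 (0.122).

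H3C1 was called in DU145 with Stat3 siRNA and H3C2 with both siRNAs. H3C2 measured 5.26, 5.07 and 5.14 with Stat3 siRNA and 5.19, 5.0 and 5.59 with Stat5a/b siRNA, against 4.62, 4.66 and 4.64 with scramble siRNA. Every siRNA array lay above the scramble arrays, and the changes were 0.51 ± 0.14 (adjusted p = 0.0156) and 0.62 ± 0.14 (adjusted p = 0.00299). H3C1 measured 3.53, 3.90 and 3.58 with Stat3 siRNA, against 3.19, 2.82 and 3.24 with scramble siRNA (0.59 ± 0.14, adjusted p = 0.00848), at values near the bottom of the array. The Stat3 call of H3C2 was lost without Stat3 replicate 1 (adjusted p = 0.0566) or with array weights (0.0539), and that of H3C1 when DU145 was fitted alone (0.0533). In CWR22Rv1 both genes changed by -0.12 to 0.085 and were not called. On all CWR22Rv1 arrays H3C2 lay at 3.97 to 4.40 and H3C1 at 3.15 to 3.58, below the array medians. H3C3, H3C7, H3C8 and H3C11 changed by -0.093 to 0.20 across the 4 comparisons.

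**Figure D3:**
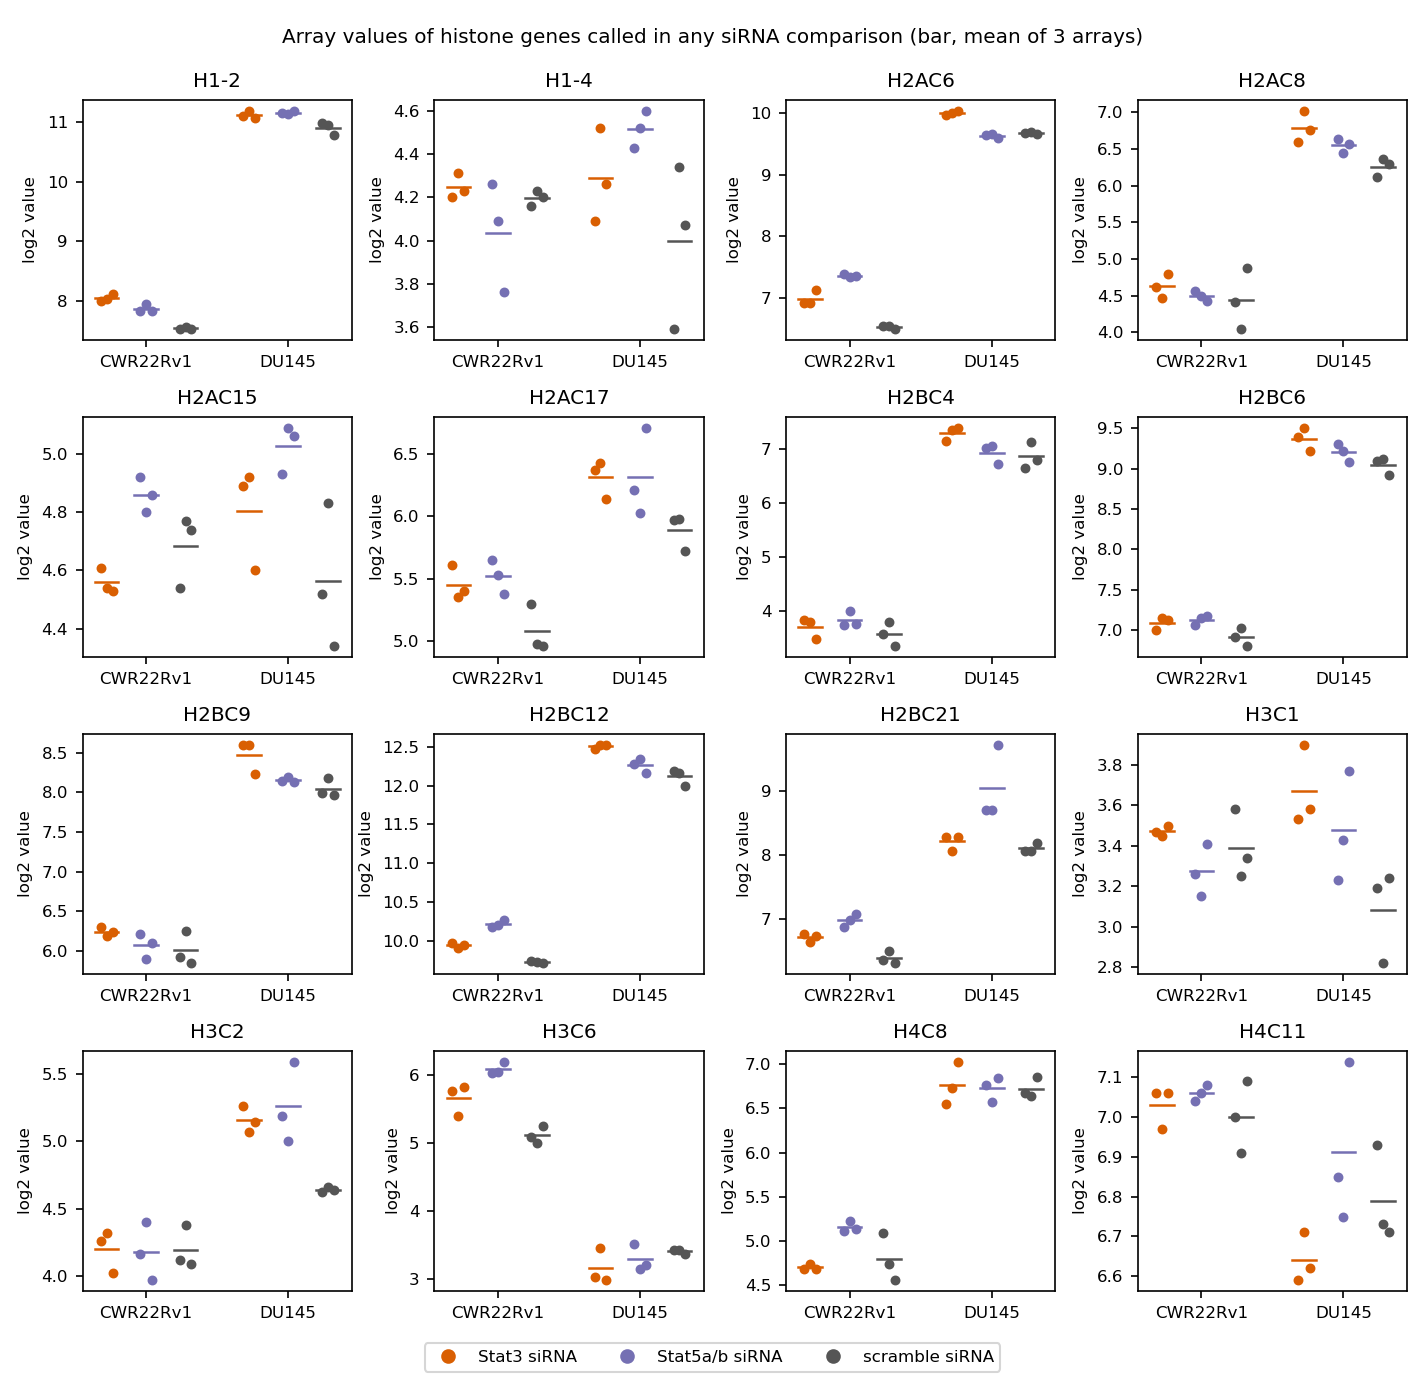
Deposited log2 values (y axis, scaled per gene) on each of the 18 arrays for the 16 histone genes called in any siRNA comparison, with Stat3, Stat5a/b and scramble siRNA from left to right in each line and a bar at each group mean. In CWR22Rv1, H2AC6, H2BC12 and H3C6 are highest with Stat5a/b siRNA and lowest with scramble siRNA, and Stat5a/b replicate 3 of H2BC21 stands apart in DU145.

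Set directly against each other, Stat5a/b and Stat3 siRNA differed in H2AC6 and H2BC12 with opposite signs in the lines. In CWR22Rv1, 3 members were higher with Stat5a/b than with Stat3 siRNA and 0 were lower, where 4.7% and 6.05% of all genes were called. They were H2AC6 (0.37 ± 0.059, adjusted p = 6.0e-04), H2BC12 (0.28 ± 0.063, adjusted p = 0.00813) and H4C8. In DU145, 2 were higher and 2 lower, where 11% and 11.2% of all genes were called: H2AC6 (-0.37 ± 0.059, adjusted p = 2.45e-04) and H2BC12 (-0.25 ± 0.063, adjusted p = 0.00927) were lower, H2BC21 (0.83 ± 0.18, adjusted p = 0.00375) and H4C11 higher. The H2BC12 call in DU145 was lost when that line was fitted alone (adjusted p = 0.0908). Without Stat5a/b replicate 3, the H2BC21 difference was 0.49 (adjusted p = 7.11e-04). The median of the 42 members was 0.035 in CWR22Rv1 and -0.046 in DU145, against 0.030 and 0.00024 over all genes.

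The H4 calls of this comparison were the weakest. H4C8 measured 5.11, 5.23 and 5.14 with Stat5a/b siRNA in CWR22Rv1, against 4.69, 4.74 and 4.68 with Stat3 siRNA (0.46 ± 0.13, adjusted p = 0.0278). These tight groups did not overlap, but the call was lost without any single one of the 6 arrays: the adjusted p was 0.0825, 0.0617 and 0.0833 without Stat3 replicates 1, 2 and 3, and 0.0552, 0.0979 and 0.0706 without Stat5a/b replicates 1, 2 and 3. The second H4C8 probe set gave 0.62 ± 0.14 (adjusted p = 0.0136 over all probe sets). H4C11 measured 6.85, 6.75 and 7.14 with Stat5a/b siRNA in DU145, against 6.59, 6.71 and 6.62 with Stat3 siRNA (0.28 ± 0.088, adjusted p = 0.0336). Its call was lost without Stat5a/b replicate 3 (0.16, adjusted p = 0.145), without Stat3 replicate 1 (0.0991) or 3 (0.0734), and when DU145 was fitted alone (0.141). The scramble arrays of H4C8 in CWR22Rv1 (5.09, 4.74 and 4.56) and of H4C11 in DU145 (6.93, 6.73 and 6.71) overlapped one or both of these siRNA groups.

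The effect of each siRNA was tested for a difference between the lines, CWR22Rv1 minus DU145. For Stat3 siRNA, 1 member was called, H3C6 (0.80 ± 0.19, adjusted p = 0.0304), where 1.82% of all genes were called higher and 1.18% lower. For Stat5a/b siRNA, 3 were called higher and 1 lower, where 6.75% and 5.17% of all genes were: H3C6 (1.09 ± 0.19, adjusted p = 0.00151), H2AC6 (0.88 ± 0.083, adjusted p = 1.56e-05) and H2BC12 (0.35 ± 0.089, adjusted p = 0.0183) had the higher change in CWR22Rv1, and H3C2 the lower (-0.64 ± 0.19, adjusted p = 0.0406). The changes themselves were 0.97 in CWR22Rv1 and -0.12 in DU145 for H3C6, 0.83 and -0.05 for H2AC6, 0.49 and 0.14 for H2BC12, and -0.018 and 0.62 for H3C2. H3C6 lay at 2.99 to 3.52 on all DU145 arrays and H3C2 at 3.97 to 4.40 on all CWR22Rv1 arrays, below the array medians. Without detection calls, a lack of response there cannot be told from a signal too low to measure. The Stat3 call of H3C6 was lost without any of 8 of the 12 arrays and the H3C2 call without any of 10 of the 12. The medians of the 42 members were -0.054 and 0.059 for the Stat3 and Stat5a/b differences. For H1-2, called in both lines, the differences of 0.30 ± 0.090 and 0.09 ± 0.090 did not pass the test.

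Neighbouring members transcribed away from each other were compared as pairs. The starts of H2AC6 and H2BC4 lie 246 bases apart, those of H2AC14 and H2BC14 245, of H2AC17 and H2BC17 240, and of H2AC15 and H2BC15 194. Between the scramble arrays of CWR22Rv1 and DU145, both genes of the first pair were lower in CWR22Rv1 (measured as -3.16 and -3.29), and both of the third (-0.81 and -0.42). H2BC4 in CWR22Rv1, and H2BC14 and H2BC17 in both lines, lay between 2.60 and 3.80 on the scramble arrays. The sizes of their differences therefore cannot be set against those of their partners. The second gave -0.42 for H2AC14, which was called, and -0.14 for H2BC14, and the fourth gave 0.12 and 0.054, neither called. With Stat3 siRNA in DU145 both H2AC6 and H2BC4 rose (0.32 and 0.44), but in CWR22Rv1 only the H2AC6 changes of 0.46 and 0.83 passed the test, the H2BC4 changes being 0.13 and 0.26. In H2BC9 and H3C7, whose starts lie 979 bases apart, Stat3 siRNA in DU145 gave 0.43, called, and -0.011. H3C7 lay at 2.73 to 3.29 on these arrays, near the bottom of the array, which limits this comparison as well.

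Many histone transcripts are so alike that a probe set matches several genes, and 20 such probe sets were kept apart. Tested among all 54675 probe sets, 1 and 2 of them rose in CWR22Rv1, for Stat3 and Stat5a/b siRNA, and 5 and 4 in DU145, where 1.2%, 1.27%, 4.33% and 7.33% of all probe sets rose. None fell, where 0.797%, 1.82%, 4.68% and 8.29% of all probe sets did. A probe set shared by 10 H3 genes measured 7.04, 7.08 and 7.27 with Stat3 siRNA and 7.54, 7.67 and 7.58 with Stat5a/b siRNA on CWR22Rv1 arrays, against 6.70, 6.64 and 6.52 with scramble siRNA. On DU145 arrays it measured 7.44, 7.52 and 7.46 and 7.54, 7.59 and 7.83, against 6.70, 6.92 and 7.22. It was called in each of the 4 comparisons (0.51, 0.97, 0.53 and 0.71, standard error 0.11), with no overlap of siRNA and scramble arrays. A second probe set with the same 10 symbols, with a mean of 3.55, gave -0.10, 0.14, 0.016 and 0.0021, and one with 11 symbols, H2AC7 among them, gave 0.47, -0.075, -0.073 and -0.14, none of them called. Of 5 probe sets shared by the same 14 H4 genes, 1, with a mean of 6.24, rose in DU145 with Stat3 siRNA (0.97 ± 0.19, adjusted p = 0.00305) and Stat5a/b siRNA (0.62 ± 0.19, adjusted p = 0.0342). The other 4 were not called, and in DU145 they gave -0.15 and -0.67 (mean 9.13), -0.15 and 0.21 (mean 6.73), 0.037 and 0.068 (mean 3.41), and 0.25 and 0.31 (mean 2.73). The second H4C8 probe set rose with Stat5a/b siRNA in CWR22Rv1 (0.69 ± 0.14, adjusted p = 0.0104), where the H4C8 probe set chosen by the rule gave 0.36 ± 0.13 (adjusted p = 0.115).

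The replacement histones, which are largely made independently of DNA replication, were measured beside them. Of 9 measured, Stat3 siRNA raised 1 in each line and lowered 0, while Stat5a/b siRNA raised 0 and lowered 2 in CWR22Rv1 and raised 2 and lowered 2 in DU145. Each count is of a few genes, beside shares of all genes of 2.75% and 7.51% raised by Stat3 siRNA in CWR22Rv1 and DU145, 3.3% lowered by Stat5a/b siRNA in CWR22Rv1, and 11.8% raised and 12.5% lowered by it in DU145. The medians were 0.087 and -0.10 for Stat3 and Stat5a/b siRNA in CWR22Rv1 and 0.076 and 0.023 in DU145. MACROH2A1, a variant with a large extra domain, measured 11.35, 11.40 and 11.27 on Stat5a/b arrays, against 11.98, 11.95 and 11.97 with scramble siRNA in CWR22Rv1 (-0.63 ± 0.053), and 10.76, 10.66 and 10.69, against 11.62, 11.68 and 11.71, in DU145 (-0.97 ± 0.053). H2AZ2 fell with it (-0.30 ± 0.059 and -0.46 ± 0.059). CENPA, the centromeric H3, rose with Stat3 siRNA in both lines (0.28 and 0.35 ± 0.065) and, in DU145, after Stat5a/b siRNA as well (0.25). H2AX rose in the same DU145 cells (0.50 ± 0.082).

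Of 16 measured factors of histone transcription and message 3′ end processing, Stat3 siRNA raised 2 in CWR22Rv1, and raised 5 and lowered 1 in DU145. Stat5a/b siRNA lowered 2 in CWR22Rv1 and raised 6 in DU145. Of all genes, 2.75% and 7.51% were raised and 2.02% and 8.25% lowered by Stat3 siRNA in CWR22Rv1 and DU145, and 3.16% and 11.8% raised and 3.3% and 12.5% lowered by Stat5a/b siRNA. The medians were 0.10 and -0.055 for Stat3 and Stat5a/b siRNA in CWR22Rv1 and 0.12 and 0.086 in DU145. CCNE2, a cyclin E, rose in DU145 by 0.77 ± 0.12 and 1.26 ± 0.12, and CDK2 by 0.35 ± 0.069 and 0.66 ± 0.069. LSM11, a subunit of the U7 particle that cuts histone transcripts, rose by 0.51 and 0.34 ± 0.091 in DU145. SLBP, the stem-loop binding protein, fell by 0.23 on the log2 scale when CWR22Rv1 received Stat5a/b siRNA (10.90, 10.96 and 10.81, against 11.10, 11.14 and 11.12 with scramble siRNA), as did ERI1, the exonuclease that trims histone messages, by 0.22. Of 15 histone chaperones, 1 rose and 1 fell in CWR22Rv1, CHAF1A with Stat3 siRNA (0.22) and CHAF1B with Stat5a/b siRNA (-0.41). In DU145, Stat3 siRNA gave 4 rises and 1 fall, that of ASF1A (-0.58), and Stat5a/b siRNA 3 rises and 2 falls, among them CHAF1B (-0.46).

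On the CWR22Rv1 Stat5a/b arrays the medians of the histone genes and of the S phase genes lay on opposite sides of 0. Of 21 measured replication genes, Stat3 siRNA raised 5 in CWR22Rv1 and 9 in DU145 and lowered 0 in either. Stat5a/b siRNA raised 0 and lowered 6 in CWR22Rv1, and raised 10 and lowered 2 in DU145. The shares of all genes were 2.75% and 7.51% raised by Stat3 siRNA in CWR22Rv1 and DU145, 3.3% lowered by Stat5a/b siRNA in CWR22Rv1, and 11.8% raised and 12.5% lowered by it in DU145. Their median changes were 0.11 and -0.15 for Stat3 and Stat5a/b siRNA in CWR22Rv1 and 0.13 and 0.22 in DU145. CDC6, which loads the replicative helicase, measured 9.72, 9.77 and 9.67 on CWR22Rv1 Stat3 arrays and 9.04, 9.04 and 9.12 on Stat5a/b arrays, against 9.30, 9.17 and 9.29 with scramble siRNA. Measured array by array as the median difference from the scramble mean of the line, the 21 replication genes lay at -0.16, -0.14 and -0.15 on the CWR22Rv1 Stat5a/b arrays, where the 42 histone genes lay at 0.13, 0.11 and 0.15. On CWR22Rv1 Stat3 arrays both were above 0, at 0.14, 0.13 and 0.10 for replication genes and 0.083, 0.095 and 0.070 for histone genes. On DU145 arrays they were above 0 with both siRNAs, replication genes at 0.14 to 0.24 and histone genes at 0.063 to 0.20, and the DU145 scramble arrays spread from -0.023 to 0.054 for histone genes. The Stat5a/b effect on replication genes was lower in CWR22Rv1 than in DU145 for 10 of 21 and higher for 0, where 5.17% and 6.75% of all genes were called.

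**Figure D4:**
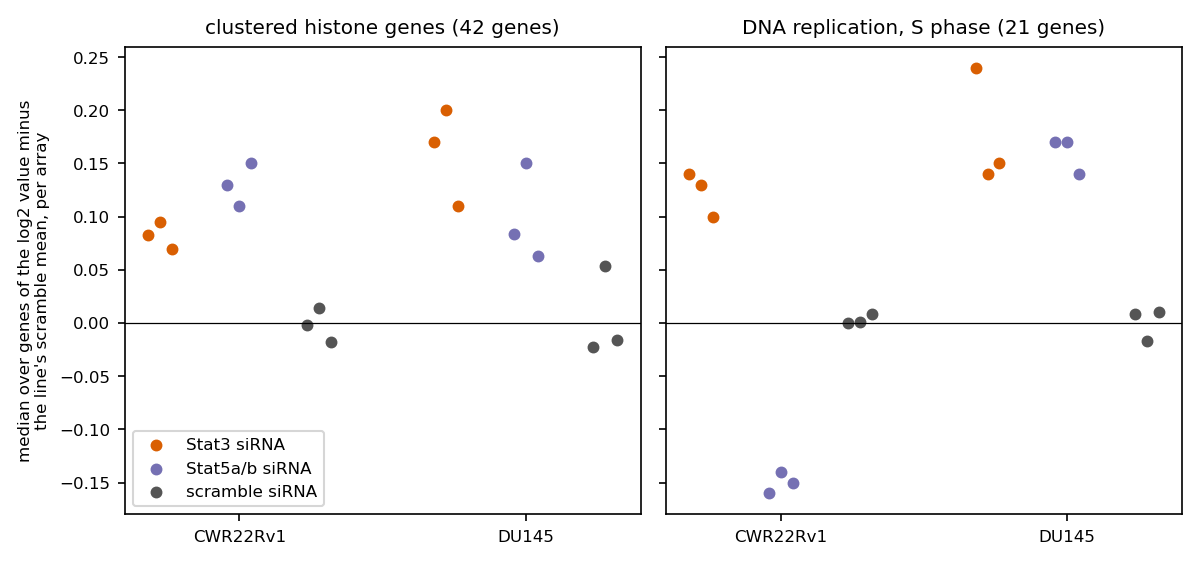
Median over the 42 clustered histone genes (left) and 21 S phase genes (right) of the log2 value minus the scramble mean of its line (y axis), 1 point per array, with Stat3, Stat5a/b and scramble siRNA from left to right in each line. On the CWR22Rv1 Stat5a/b arrays the histone medians lie at 0.11 to 0.15 and the S phase medians at -0.16 to -0.14.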

How the data were processed

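The authors deposited log2 values, 1 for each probe set and array. RMA and limma are named without versions, per the submitters' processing notes. RMA corrects background, quantile-normalises arrays and summarises probes. The values, from 1.54 to 14.3, were taken as they stand. No detection calls were used, so how far a value lay above background is unknown, and the number of arrays limits the precision. The labels do not say that the 3 arrays of a group came from separate cultures, so the p-values cover only a spread between samples that may be technical.

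Of 54675 probe sets, 41097 had 1 gene symbol and 1801 several in the platform annotation. For each of the 19775 genes the single-symbol probe set of highest mean was kept. All 42 members matched RefSeq (GRCh38.p14) by Entrez identifier, with 0 other symbols. One model with a mean per group was fitted with limma 3.58.1 in R 4.3.3 to the 18 arrays, leaving 12 residual degrees of freedom beside 3.82 of the prior. P-values are two-sided and adjusted by Benjamini-Hochberg across all genes, with calls made below 0.05. The standard error pools the 6 groups. The procedure was tested on simulated data. Median standard deviations of members within a group were 0.0875 to 0.127 in CWR22Rv1 and 0.136 to 0.184 in DU145.

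The members, the gene lists, the alternatives and the naming rule were chosen with earlier results of these data known. The rule names every member called in an siRNA comparison, between the siRNAs or in a difference between the lines, the member with the highest mean in each family, the 3 largest line differences each way, the siRNA targets and called list genes by example. Some genes of the lists are not analysed here. Promoters were searched on both strands in windows of 250 bases before and 50 after the start.

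Replicate numbers in the labels were checked as pairs. Deviations of same-numbered Stat3 and scramble arrays in DU145 correlated at 0.20, 0.16 and 0.33, so the arrays of that comparison may be paired by number, which the labels do not state. The main fit held no block, so all values of that comparison given above are unpaired, and fits with a replicate block are given as alternatives. In the other comparisons with scramble, at least 1 correlation was under 0.1. For Stat5a/b siRNA they were 0.064, 0.12 and 0.17 in DU145 and 0.14, 0.091 and 0.053 in CWR22Rv1. Each of these was higher than with the scramble arrays of other numbers, so pairing there is not settled.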

Additional observations from a re-analysis of the deposited data

Results flagged for a closer look

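For 5 results the effect of an siRNA differed between the lines by a test of the difference itself (limma, CWR22Rv1 minus DU145, adjusted over all genes). They were H3C6 with Stat3 siRNA (0.80 ± 0.19) and, with Stat5a/b siRNA, H3C6 (1.09 ± 0.19), H2AC6 (0.88 ± 0.083), H2BC12 (0.35 ± 0.089) and H3C2 (-0.64 ± 0.19).

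H2AC6 and H2BC12 kept their call in every alternative run. The H3C6 difference for Stat5a/b siRNA kept it as well, with H3C6 at 2.99 to 3.52 on DU145 arrays, near the bottom of the range, and a second H3C6 probe set gave 0.34 ± 0.20 (adjusted p = 0.37). The H3C6 call for Stat3 siRNA was lost without 8 of the 12 arrays (adjusted p = 0.0539 to 0.0838), namely replicates 1 and 2 of both scramble groups and replicates 1 and 3 of both Stat3 groups. It was also lost with the mean of both probe sets (0.32, adjusted p = 0.271) and with p-values adjusted over all probe sets (0.0585). The H3C2 call was lost without 10 of the 12 arrays, all but Stat5a/b replicate 2 of each line, with adjusted p = 0.0513 to 0.104. H3C2 lay at 3.97 to 4.40 on all CWR22Rv1 arrays, below the array medians.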

How the results depend on the processing

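Over the alternatives, 465 of 555 values of the 34 single-gene calls kept their call, 90 lost it and 0 changed sign. With array weights, members called numbered 7 for both Stat3 and Stat5a/b siRNA in CWR22Rv1, 3 for Stat3 siRNA in DU145, 7 for Stat5a/b against Stat3 siRNA in CWR22Rv1 and 2 for the Stat3 difference between the lines. With one line fitted alone they numbered 6 for Stat3 siRNA and 8 for Stat5a/b against Stat3 siRNA in CWR22Rv1, and 5, 3 and 2 for Stat3, Stat5a/b and Stat5a/b against Stat3 siRNA in DU145. With genes of mean 6 or more they numbered 5 and 2 for Stat3 and Stat5a/b siRNA in DU145 and 2 for the Stat5a/b difference, fewer members being tested, and the median change was 0.21 for both siRNAs in CWR22Rv1 and for Stat3 siRNA in DU145. The Stat3 difference gave 2 with an intensity trend, 0 with the mean of all probe sets and 0 with each probe set tested on its own, an alternative added after seeing the data. The Stat5a/b median in CWR22Rv1 was 0.077 with cyclic loess and 0.071 with the mean of all probe sets. Shares of all genes called are not given for the alternatives, so the shifts in the counts are not shown to be particular to histone genes. Beyond these constructions the cause of the shifts was not tested. Leaving out 1 array gave 2 to 3 and 4 to 5 rises with Stat3 and Stat5a/b siRNA in CWR22Rv1, with medians of 0.079 to 0.10 and 0.10 to 0.13. In DU145 it gave 5 to 10 and 4 to 7 rises, 0 to 1 and 0 falls, and medians of 0.090 to 0.17 and 0.065 to 0.10, the 9 rises with Stat3 siRNA becoming 6, 5 and 5 without scramble replicates 1 and 3 and Stat3 replicate 2. Stat5a/b against Stat3 siRNA gave 2 to 3 calls in CWR22Rv1 and 3 to 5 in DU145, and the differences between lines 0 to 2 and 3 to 4. With a replicate block, rises numbered 3 and 4 in CWR22Rv1 and 9 and 5 in DU145. With the block within each line, also added later, they numbered 3, 4, 10 and 6. The block changed no count by over 1.5 times. It lost the DU145 Stat5a/b call of H2AC17 (adjusted p = 0.0510) and the H3C2 difference (0.0561). Whether the arrays of these comparisons are paired is not known.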
